A study of Mus musculus with 12 samples.

Results

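The Slc25 family of mitochondrial carriers was followed across liver and intestine of mice given corticosterone (CORT), the main glucocorticoid of rodents. Members were chosen by name alone, as every gene in the expression tables called Slc25a and a number, with pseudogenes left out, which gave 47 genes of 55416 listed. The 12 libraries fall into 4 groups of 3, namely liver and intestine (duodenum) from mice given CORT or vehicle (Veh). All mice were male C57BL6/J animals without a genetic change, aged 8 weeks at the start, and they received CORT at 40 mg/kg or the vehicle, a DMSO, Tween-80 and water solution, by daily subcutaneous injection for 8 weeks. RNA was made from 50 mg of frozen tissue per sample, so every value is an average over all cells of the piece. The questions were which carriers each tissue uses without treatment and which differed after chronic CORT in each tissue.

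Slc25 proteins sit mostly in the inner mitochondrial membrane, where each one exchanges particular solutes between matrix and cytosol: nucleotides, phosphate, carboxylates, amino acids, cofactors, metal ions or fatty acid esters. They set which pathways can run across that membrane, among them ATP export, fatty acid oxidation, the urea cycle, gluconeogenesis and citrate export for lipid synthesis. Liver depends on the carriers of the urea cycle and of fatty acid oxidation, and glucocorticoids are known to drive amino acid breakdown and gluconeogenesis there, while the duodenal epithelium absorbs and burns dietary fuels.

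Levels are TPM values, relative transcript abundances that are corrected for transcript length and sum to nearly the same total in each library. The reads behind a value are unknown, so no counting error is given, and precision comes only from the spread of 3 libraries per group. The label of each tissue was checked on markers, and Alb, the serum albumin gene, was at 32823 to 59476 TPM in liver and below 1 TPM in intestine, whereas Vil1, a brush border gene, was at 839 to 1436 TPM in intestine and below 1 TPM in liver. Intestine libraries 2 and 3 of the Veh group held pancreatic acinar transcripts at 4.61% and 3.94% of all TPM, against 0.604% to 0.688% in the other intestine libraries, where Zg16, which intestinal goblet cells also make, supplied nearly the whole sum. Immune markers summed to 885 to 1094 TPM in Veh and 309 to 666 TPM in CORT intestine, and smooth muscle markers to 451 to 902 TPM and 298 to 484 TPM. Most of the immune sums was Jchain, a plasma cell gene, at 785 to 965 TPM in Veh and 212 to 488 TPM in CORT intestine. The other immune markers, Cd79a, Adgre1, Ptprc, Cd3e and Lyz2, overlapped between these groups. Erythroid markers summed to 119 to 247 TPM in Veh and 366 to 707 TPM in CORT intestine, without overlap, and to 755 to 1983 TPM and 1287 to 1766 TPM in Veh and CORT liver. Liver libraries held immune sums of 24.9 to 83.1 TPM in both groups.

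The 47 members together made up 0.196% to 0.361% of TPM in liver and 0.431% to 0.537% in intestine. In liver they summed to 1957, 2452 and 2486 TPM in the Veh libraries and to 3468, 3565 and 2737 TPM in the CORT libraries. All 3 CORT livers lay above all 3 Veh livers, and this also held without Slc25a47, with sums of 1623 to 2012 TPM in Veh and 2289 to 2588 TPM in CORT. In intestine the sums were 4302 to 4749 TPM in Veh and 4827 to 5332 TPM in CORT, again without overlap. Without Slc25a5, however, the intestine sums were 2317 to 2624 TPM in Veh and 2121 to 2584 TPM in CORT, so that the groups overlapped. No test was run on these sums, because the smallest two-sided p of an exact permutation test with 3 libraries per group is 0.1.

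**Figure D1:**
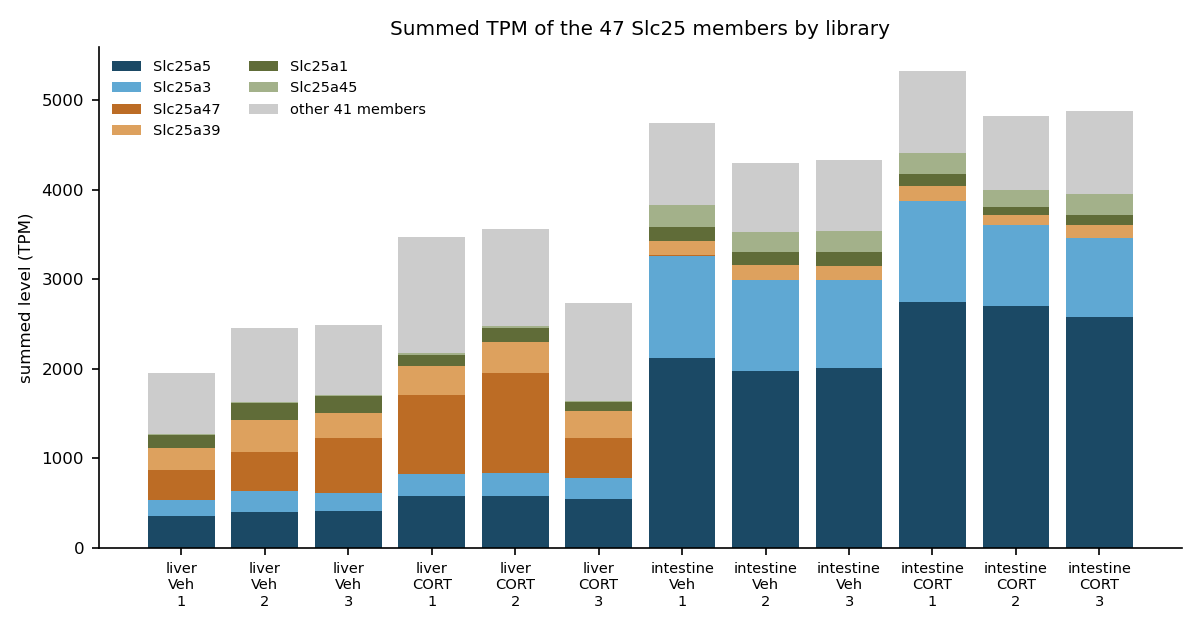
Stacked bars give the summed level (TPM) of the 47 Slc25 members in each of the 12 libraries, split into 6 abundant members and the other 41 together. Slc25a5 and Slc25a3 make up most of every intestine bar, while Slc25a47 is a large part of each liver bar and is close to 0 in intestine.

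A few carriers dominated each tissue. In Veh liver 7 members were at 100 TPM or more on average, led by Slc25a47, a carrier found mainly in hepatocytes, at 462 ± 139 TPM (SD, n = 3). It was followed by the ADP/ATP carrier Slc25a5 at 385 ± 28.4 TPM, the glutathione carrier Slc25a39 at 296 ± 51.3 TPM, the phosphate carrier Slc25a3 at 208 ± 29.0 TPM and the citrate carrier Slc25a1 at 172 ± 27.03 TPM. Among neighbours in this order, the library ranges of Slc25a47 and Slc25a5 overlapped, as did those of Slc25a3 and Slc25a1, and in Veh library 1 Slc25a5, at 353 TPM, was above Slc25a47, at 334 TPM. Veh intestine also had 7 members at that level, but Slc25a5 alone, at 2036 ± 80.5 TPM, held 45.7% ± 0.864 (SD, n = 3) of the family total. Slc25a3 came next there at 1048 ± 82.4 TPM, and Slc25a45, a carrier with no substrate named here, followed at 228 ± 15.6 TPM. At the other end, 7 members stayed under 1 TPM on average in every group (Slc25a2, Slc25a18, Slc25a27, Slc25a31, Slc25a41, Slc25a43 and Slc25a54), and Slc25a41 and Slc25a54 were listed at 0 in all 12 libraries.

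To ask which carriers separate the tissues without treatment, the 3 Veh livers were compared with the 3 Veh intestines on log2(TPM + 1), a scale that understates differences of low genes. The tissues were deposited in separate tables, and TPM is scaled within each library rather than across a table. The test was limma over every gene that averaged 1 TPM or more in a group, with Benjamini-Hochberg adjustment over all of them, and a gene was called at an adjusted p of 0.05 or less with a fold change over 1.5. Of the 47 members 40 reached the level for testing, and 26 of them (65%) were called, 12 higher in liver and 14 lower. Among all 14134 genes tested 67.4% were called, 14.4% higher and 53% lower, so the share of carriers was close to the background. The Veh libraries of the tissues did not overlap in 31 members, 13 higher and 18 lower in liver, beside 77.9%, 17.5% and 60.4% of all genes. The members' median log2 difference, liver minus intestine, was -0.28, against -0.72 for all genes. When each library was scaled instead by the median ratio of its genes, the median of all genes became -0.018, and the calls were 18 higher and 10 lower among the members and 3854 higher and 4272 lower among all genes, against 2029 and 7495 with TPM as deposited. The sizes of the tissue differences therefore depend on the scaling, and for those near -0.72 the sign does too. Over all alternative settings Slc25a5 ran from -2.47 to -1.58, Slc25a11 from -1.85 to -0.84 and Slc25a51 from -1.56 to -0.71. Slc25a13, higher in liver, ran from 1.69 to 2.53. The dicarboxylate carrier Slc25a10 (-0.72) and the aspartate/glutamate carrier Slc25a12 (-0.60), both called, turned to 0.093 and 0.11 under that scaling and lost their calls, while Slc25a14 and Slc25a28 lost theirs without a change of sign. Slc25a15, Slc25a20, Slc25a26, Slc25a37, Slc25a38 and Slc25a44, not called on TPM, also turned from below 0 to above 0. Slc25a1 (0.95), Slc25a29, Slc25a30, Slc25a32 (0.85), Slc25a38 and Slc25a46 were called higher in liver under that scaling only.

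**Figure D2:**
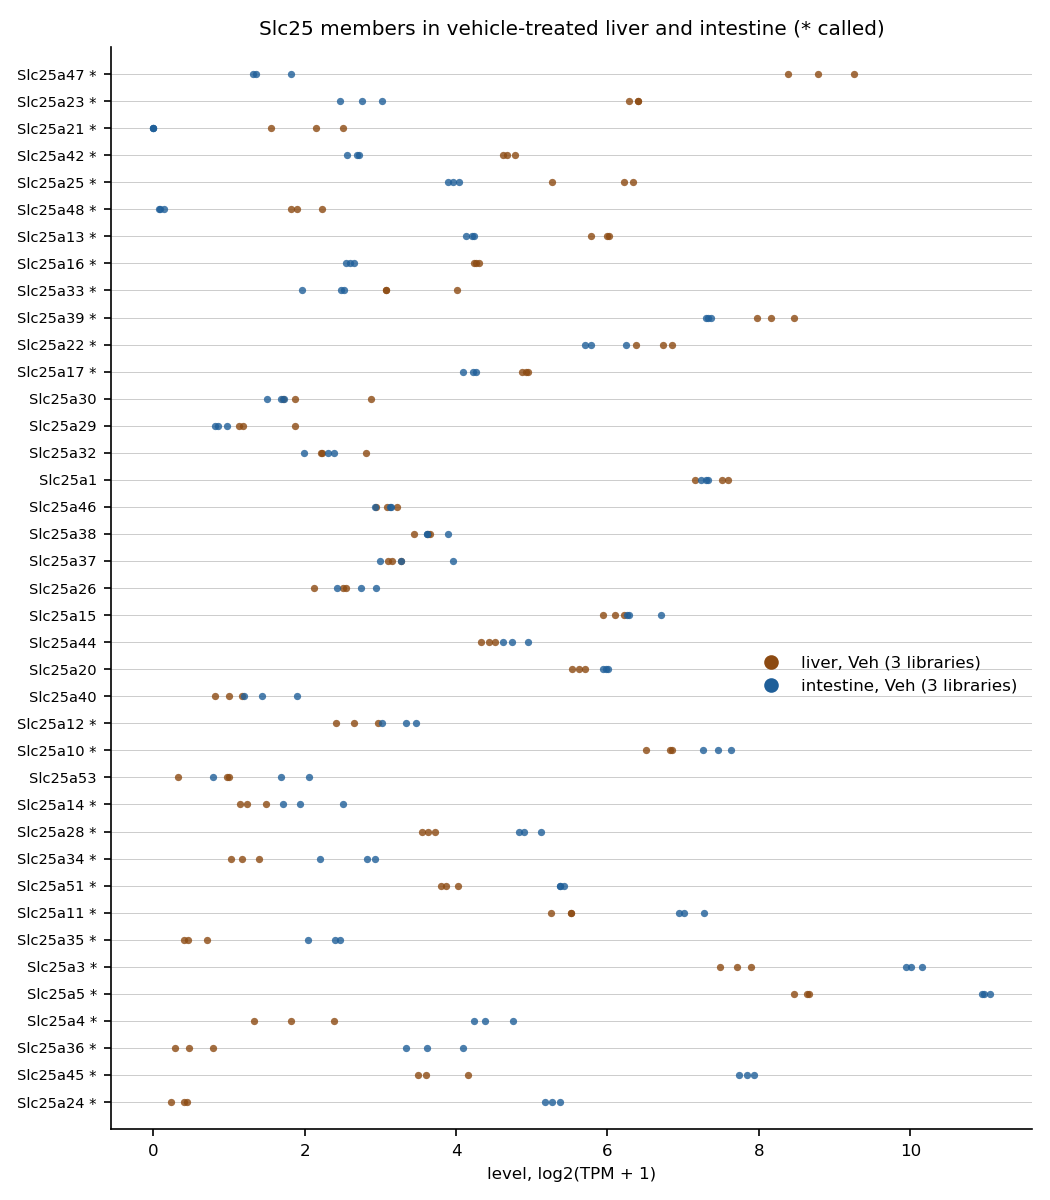
Each point is the log2(TPM + 1) level of a tested and reported Slc25 member in 1 Veh library, brown for liver and blue for intestine, with members ordered by the difference and an asterisk for those called. Slc25a47 at the top and Slc25a24, Slc25a45 and Slc25a36 at the bottom have wide gaps between the tissues, while Slc25a46 and Slc25a38 in the middle overlap.

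The ADP/ATP carriers, which export the ATP made in the matrix, and the phosphate carrier, which brings in the phosphate for its synthesis, were called higher in intestine. Slc25a5 was at 353, 396 and 406 TPM in Veh liver and at 2125, 1969.9 and 2012 TPM in Veh intestine, 5.29-fold higher in intestine (log2 difference -2.40, standard error 0.10, limma adjusted p = 1.3e-06). Its relative Slc25a4, the form typical of heart and muscle, made up only 0.701% of the ADP/ATP carriers in liver and 1.03% in intestine, and it too was called lower in liver (log2 difference -2.61). Slc25a3 was 1048 ± 82.4 TPM in intestine and 208 ± 29.0 TPM in liver (log2 difference -2.34, limma adjusted p = 6.4e-06). The RNA of Slc25a5 has processed copies in the genome and a close relative in Slc25a4, so reads may have been split between them and its level is uncertain to that extent.

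The ATP-Mg/phosphate carriers, calcium-regulated proteins that adjust the matrix pool of adenine nucleotides, differed between the tissues in which member was the most abundant. Slc25a24 was at 0.18, 0.36 and 0.32 TPM in Veh liver and at 40.3, 35.2 and 37.5 TPM in Veh intestine (log2 difference -4.91, standard error 0.13, limma adjusted p = 1.4e-07), where it made up 64.7% ± 1.99 (SD, n = 3) of the TPM of this group. Slc25a23 was at 84.0, 83.5 and 76.8 TPM in Veh liver and at 5.77, 7.16 and 4.52 TPM in Veh intestine, 14-fold higher in liver (log2 difference 3.61, limma adjusted p = 2.0e-06). No library of either tissue reached the range of the other for these members. Slc25a25 was also called higher in liver (log2 difference 1.98), with Veh library 1, at 37.6 TPM, well below the 79.9 and 73.6 TPM of the other livers. Together Slc25a23 and Slc25a25 thus carried nearly the whole of this group in liver, 57.0% and 42.8% of it, and they still held 10.0% and 25.2% of it in Veh intestine.

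Shares within other sets of related carriers were also read. The pyrimidine nucleotide carriers Slc25a33 and Slc25a36 had opposite shares, with Slc25a33 at 95.8% ± 1.14 (SD, n = 3) of the pair in Veh liver and Slc25a36 at 73.9% ± 9.64 of it in Veh intestine. Slc25a36 was at 0.22, 0.73 and 0.39 TPM in liver and at 16.1, 9.11 and 11.2 TPM in intestine (log2 difference -3.16, limma adjusted p = 2.3e-05). Among the related carriers Slc25a45, Slc25a47 and Slc25a48, Slc25a47 made up 96.4% in Veh liver and Slc25a45 made up 99.2% in Veh intestine. The 3 Veh livers held Slc25a47 at 334, 440.4 and 610.2 TPM and the 3 Veh intestines at 2.54, 1.56 and 1.5 TPM, a difference of 7.31 on the log2 scale (standard error 0.25, limma adjusted p = 5.0e-07), which was the largest among the members. Slc25a45 was at 16.9, 11.2 and 10.3 TPM in liver and at 244, 213 and 228 TPM in intestine (log2 difference -4.09, limma adjusted p = 2.2e-06). Slc25a48, a choline carrier, was at 2.99 ± 0.618 TPM in liver and below 1 TPM in intestine (log2 difference 1.89).

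Of the 9 carriers of cofactors and nucleotides tested 6 were called, 4 higher in liver and 2 lower, with a median log2 difference of 0.19. That share is close to the 67.4% called among all genes tested. Beside the pyrimidine carriers Slc25a33 (1.07) and Slc25a36 (-3.16), those higher in liver were the coenzyme A carriers Slc25a42 (24.9 ± 1.52 against 5.30 ± 0.363 TPM, log2 difference 2.04) and Slc25a16 (18.2 ± 0.477 against 5.07 ± 0.225 TPM, 1.66), and the peroxisomal carrier Slc25a17 (0.72). Lower in liver was Slc25a51, the NAD carrier, at 13.9 ± 1.20 TPM against 40.96 ± 0.783 TPM (2.94-fold, limma adjusted p = 2.6e-05). The carriers of S-adenosylmethionine (Slc25a26) and folate (Slc25a32) were not called, with log2 differences of -0.32 and 0.19.

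Of the 4 carboxylate carriers tested 3 were called, Slc25a21 higher in liver and Slc25a10 and Slc25a11 lower. Of 7 amino acid carriers 3 were called, Slc25a13 and Slc25a22 higher in liver and Slc25a12 lower. These counts stand beside 67.4% of all genes called in this comparison. Slc25a11, the oxoglutarate carrier of the malate-aspartate shuttle, was 3.19-fold higher in intestine (log2 difference -1.65), while Slc25a1, the citrate carrier, was not called (0.13, 95% interval -0.20 to 0.47). Slc25a21, which carries oxodicarboxylates of lysine and tryptophan breakdown, was listed at 0 in all 3 Veh intestines and at 3.42, 1.94 and 4.70 TPM in the livers. Slc25a13, the liver-type aspartate/glutamate carrier (citrin), was at 60.1 ± 5.39 TPM in liver and 17.3 ± 0.713 TPM in intestine (log2 difference 1.74, limma adjusted p = 1.5e-05), and made up 91.7% and 66.4% of the pair with its relative Slc25a12. Slc25a22, a glutamate carrier, was called higher in liver too (0.74). Slc25a15, the ornithine carrier of the urea cycle, was at 67.1 ± 6.50 TPM in liver and 85.4 ± 15.8 TPM in intestine and was not called (limma adjusted p = 0.0962). Slc25a20, the carnitine/acylcarnitine carrier, was at 45.1, 48.4 and 51.0 TPM in liver and at 63.1, 62.3 and 60.7 TPM in intestine, lower in every liver, with a log2 difference of -0.36 that passed the limit on adjusted p (0.0173) but not on fold change, and that became 0.45 under the median-ratio scaling.

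Of the metal and glutathione carriers, Slc25a39 was higher in liver (log2 difference 0.87), Slc25a28, mitoferrin 2, was higher in intestine (-1.32), and Slc25a37, mitoferrin 1, the iron carrier of red cell precursors, was not called (-0.24). The orphan carriers Slc25a34 (-1.45) and Slc25a35 (-1.78) were both called higher in intestine, at 5.43 ± 1.61 and 3.96 ± 0.747 TPM there against 1.31 ± 0.299 and 0.440 ± 0.166 TPM in liver. Leaving out each Veh library in turn gave between 24 and 27 calls, and of the 26 calls all but Slc25a12 and Slc25a14 held in each of these 6 fits. Without Veh intestine libraries 2 and 3, which held the acinar transcripts, 23 members were called, 8 higher and 15 lower in liver, of which 21 were among the 26. The calls of Slc25a12, Slc25a22, Slc25a25, Slc25a33 and Slc25a39 (0.90, limma adjusted p = 0.0578) were lost there, with the lone Veh intestine library taken to vary like the livers.

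CORT against Veh was then compared within each tissue on the same scale and by the same rule, to ask which carriers differed after treatment. In liver 36 members were tested and 4 of them (11.1%) were called, all higher after CORT: Slc25a13, Slc25a20, Slc25a22 and Slc25a34. Of all 11699 liver genes tested 6.92% were called, 4.91% higher and 2.01% lower. In 27 members the log2 difference was above 0 and in 9 below, with a median of 0.40 against 0.078 for all genes. The CORT and Veh libraries did not overlap in 17 members (47.2%), 15 of them with CORT above Veh, while this held for 32.2% of all genes tested, 20.6% with CORT above Veh and 11.6% below. In whole tissue, fewer cells of a type and less RNA per cell cannot be told apart, and the p-values measure only the spread between these samples.

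In intestine 38 members were tested and 2 of them (5.26%) were called, again higher after CORT: Slc25a13 and Slc25a20. The background was 2.15% of 13607 genes called, 1.23% higher and 0.919% lower. Here 24 members had a log2 difference above 0 and 14 below, with a median of 0.078 against -0.012 for all genes. CORT and Veh libraries did not overlap in 17 members (44.7%), 13 with CORT above Veh and 4 below, beside 26.4% of all genes, 12.2% above and 14.3% below. The immune sums, mostly Jchain, were lower in all CORT intestines, and the erythroid sums were higher in all of them. These sums and the acinar transcripts of Veh libraries 2 and 3 moved with the groups, while the smooth muscle sums overlapped. With the acinar genes removed both calls held. That setting only drops those genes and rescales, so any Slc25 RNA from pancreatic cells stays in the values. Without Veh libraries 2 and 3 the log2 fold changes were 0.63 for Slc25a13 and 0.84 for Slc25a20. The calls were not kept in that fit, which rests on a lone Veh library. The part of the pancreatic, immune, red and muscle cells in the intestine values was not tested.

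**Figure D3:**
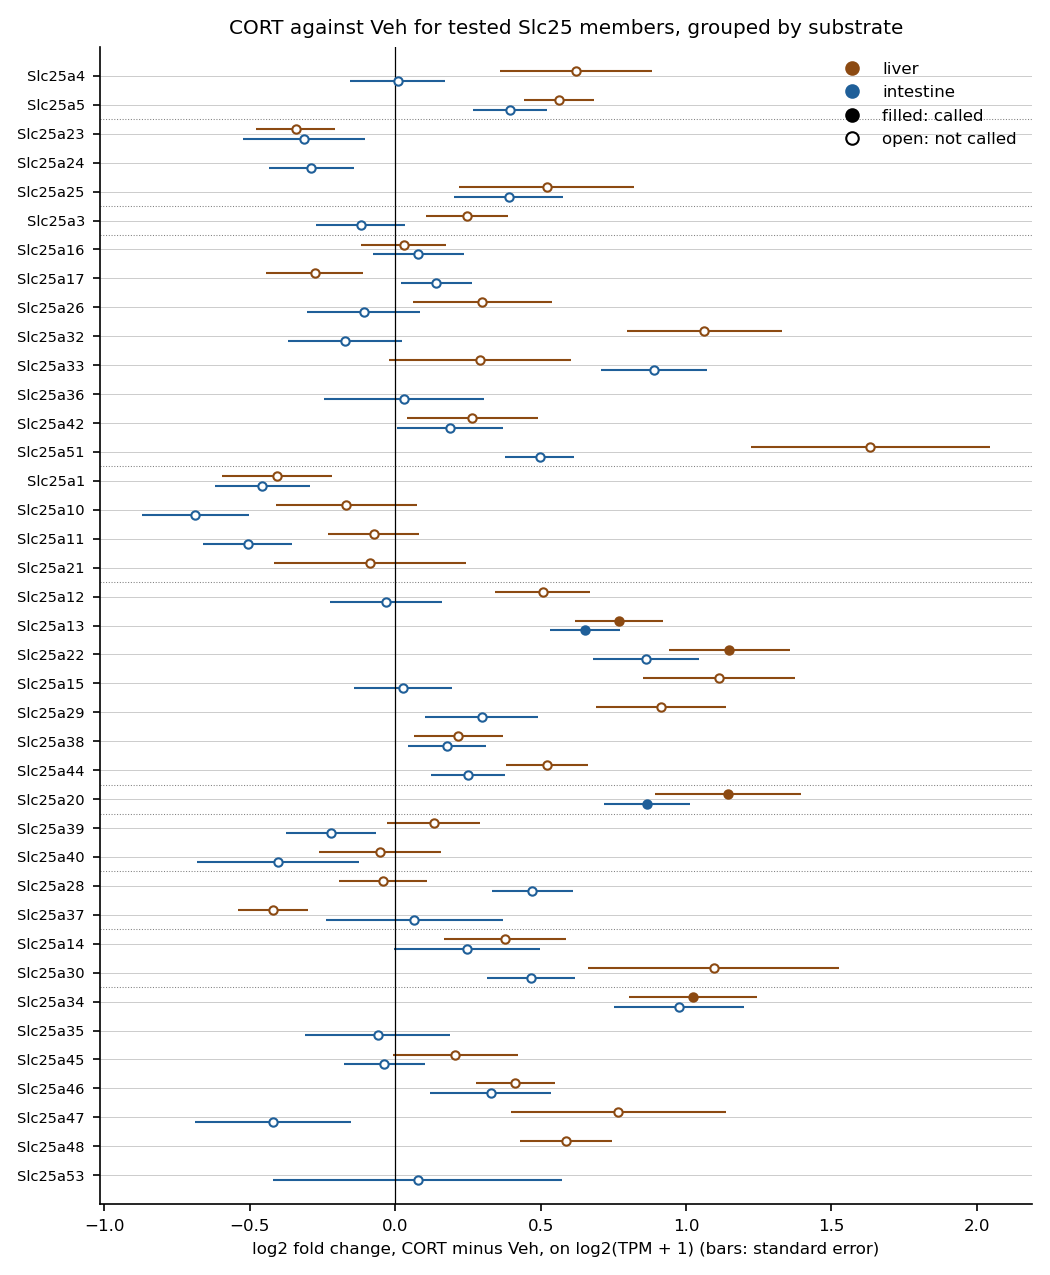
Points give the log2 difference, CORT minus Veh, on log2(TPM + 1) for the tested and reported Slc25 members in liver (brown) and intestine (blue), with bars for the standard error, filled points for called members and dotted lines between groups of substrates. The 6 filled points, Slc25a13 and Slc25a20 in both tissues and Slc25a22 and Slc25a34 in liver, all lie to the right of 0, and the carboxylate carriers Slc25a1, Slc25a10 and Slc25a11 lie to the left.

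The calls depended on single libraries. In liver the number called was 0 without Veh library 1 or CORT library 1, 1 without Veh library 3 (Slc25a29), 2 without CORT library 2 (Slc25a15 and Slc25a51), 3 without CORT library 3 and 5 without Veh library 2. In intestine it was 0 without Veh library 2, Veh library 3, CORT library 1 or CORT library 3, and 1 without Veh library 1 (Slc25a22) or CORT library 2 (Slc25a20). The direction of the 6 calls was the same in all of these fits.

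The acylcarnitine carrier gave calls in both tissues. Slc25a20 (ENSMUSG00000032602) brings long-chain acylcarnitines into the matrix for fatty acid oxidation in exchange for carnitine. In liver it was at 45.1, 48.4 and 51.0 TPM in Veh and at 133, 132 and 70.6 TPM in CORT, a mean of 48.2 ± 2.94 against 112 ± 35.7 TPM (SD, n = 3). Every CORT liver was above every Veh liver, although CORT library 3 was far below the other CORT livers. On the log2 scale this was 1.14 higher (95% interval 0.55 to 1.74, standard error 0.25, limma adjusted p = 0.0428), and leaving out single libraries gave 0.99 to 1.44. In intestine it was at 63.1, 62.3 and 60.7 TPM in Veh and at 124, 93.6 and 127 TPM in CORT. The groups were again apart, with tight Veh values and CORT library 2 the lowest of the treated. Here the log2 fold change was 0.87 (standard error 0.15, 95% interval 0.51 to 1.22, limma adjusted p = 0.0392). The difference between the tissues, liver minus intestine, was 0.28 with a 95% interval of -0.40 to 0.95. Median-ratio scaling ended the liver call (log2 fold change 1.05, limma adjusted p = 0.0559) and kept the intestine call (0.87, limma adjusted p = 0.0475).

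**Figure D4:**
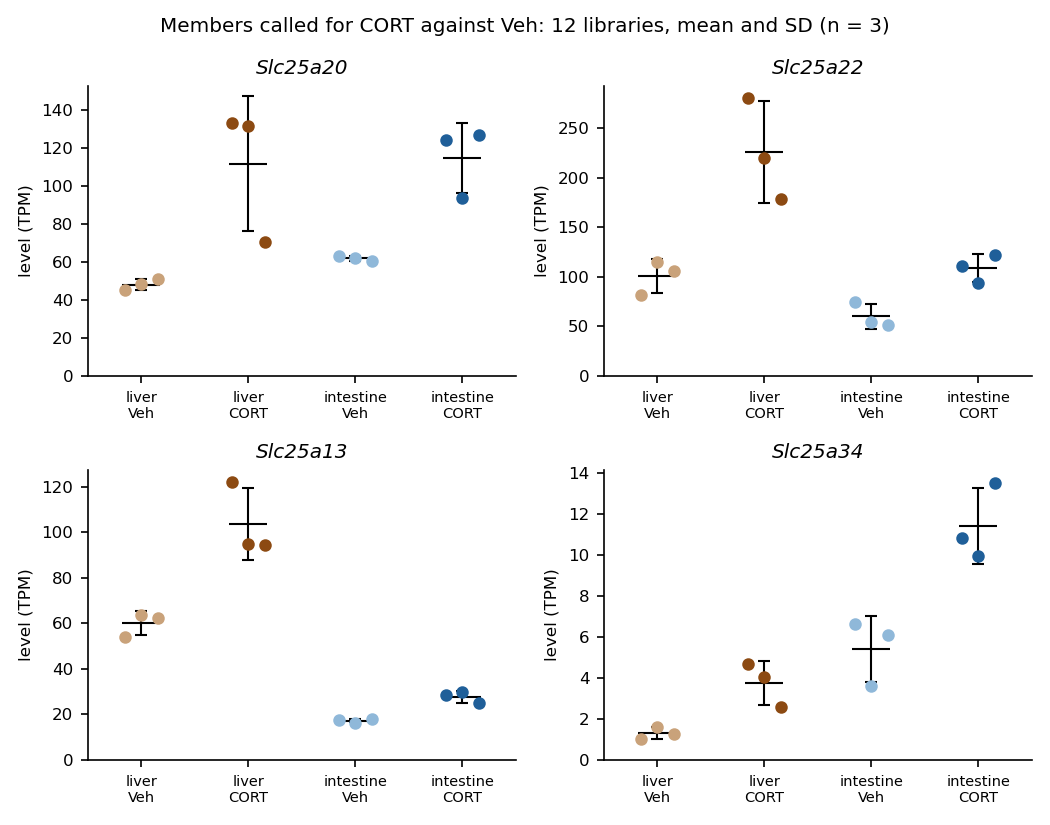
Each panel shows 1 of the 4 called members with its level (TPM) in the 12 libraries as points, 3 per group, and the mean and SD as black lines. In every panel all CORT points of a tissue lie above all Veh points of that tissue, though Slc25a22 and Slc25a34 were not called in intestine.

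Amino acid carriers held 2 further calls in liver. Slc25a22 (ENSMUSG00000019082), which moves glutamate with a proton into mitochondria, was at 81.8, 115 and 106 TPM in Veh liver and at 281, 219 and 178 TPM in CORT liver. The groups did not overlap, and the lowest CORT liver was 178 TPM against 115 TPM for the highest Veh liver. Its log2 fold change was 1.15 (standard error 0.21, limma adjusted p = 0.0252). In intestine Slc25a22 was at 75.0, 54.0 and 51.2 TPM in Veh and at 111, 94.2 and 122 TPM in CORT, also apart, with a log2 fold change of 0.86 that missed the threshold (limma adjusted p = 0.0685). Slc25a13 (ENSMUSG00000015112), the citrin that exports aspartate for the urea cycle and the malate-aspartate shuttle, was at 53.9, 63.9 and 62.5 TPM in Veh liver and at 122, 94.8 and 94.2 TPM in CORT liver. Its intestine values were 17.5, 16.5 and 17.8 TPM in Veh and 28.5, 29.9 and 24.8 TPM in CORT. In each tissue the groups were apart, and the log2 fold changes were 0.77 (standard error 0.15, limma adjusted p = 0.0314) in liver and 0.65 (standard error 0.12, limma adjusted p = 0.0493) in intestine. The intestine call of Slc25a13, close to the threshold, was lost with median-ratio scaling (limma adjusted p = 0.0543) and with mitochondrially encoded genes removed (limma adjusted p = 0.0537).

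Other amino acid carriers in liver came near the threshold without passing. Slc25a15 (ENSMUSG00000031482), which exchanges ornithine and citrulline in the urea cycle, was at 73.5, 67.3 and 60.5 TPM in Veh liver and at 136, 104 and 217 TPM in CORT liver (log2 fold change 1.11, limma adjusted p = 0.0506). All CORT livers were above all Veh livers, with the widest spread in the CORT group. In intestine the same gene was at 85.4 ± 15.8 TPM in Veh and 86.4 ± 10.6 TPM in CORT (log2 fold change 0.03). The difference of the log2 fold changes, liver minus intestine, was 1.09 (95% interval 0.36 to 1.81, limma adjusted p = 0.104). Slc25a29, a carrier of basic amino acids, had a log2 fold change of 0.91 in liver (limma adjusted p = 0.0576) and 0.30 in intestine. Slc25a44, a carrier of branched-chain amino acids, had 0.52 and 0.25. Each had CORT above Veh in all libraries of both tissues. Slc25a29, however, entered the intestine fit only through its CORT group. It was at 0.97, 0.76 and 0.81 TPM in Veh intestine and at 1.5, 0.98 and 1.35 TPM in CORT intestine. The glycine carrier Slc25a38 gave 0.22 and 0.18 with overlap. Of 7 amino acid carriers tested, 6 had CORT above Veh without overlap in liver and 4, Slc25a29 among them, in intestine. Of all genes 20.6% and 12.2% did, and no amino acid carrier had CORT below.

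Among the ADP/ATP carriers, Slc25a5 (ENSMUSG00000016319) was at 353, 396 and 406 TPM in Veh liver and at 579, 579 and 546 TPM in CORT liver. The groups lay clearly apart with little spread, and the log2 difference of 0.56 (limma adjusted p = 0.0393, standard error 0.12) passed the limit on adjusted p but not that on fold change, since the ratio of means was 1.48. In intestine it was at 2125, 1969.9 and 2012 TPM in Veh and at 2748, 2706 and 2577 TPM in CORT (log2 fold change 0.40, limma adjusted p = 0.165). The share of Slc25a5 in the family total of the intestine was 45.7% ± 0.864 in Veh and 53.5% ± 2.34 in CORT (SD, n = 3). Slc25a3 had log2 differences of 0.25 in liver and -0.12 in intestine, with overlap in both. Of the ATP-Mg/phosphate carriers, Slc25a23 was at 84.0, 83.5 and 76.8 TPM in Veh liver and at 74.6, 59.5 and 59.0 TPM in CORT liver, with all CORT values below and no call (log2 fold change -0.34, limma adjusted p = 0.172).

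**Figure D5:**
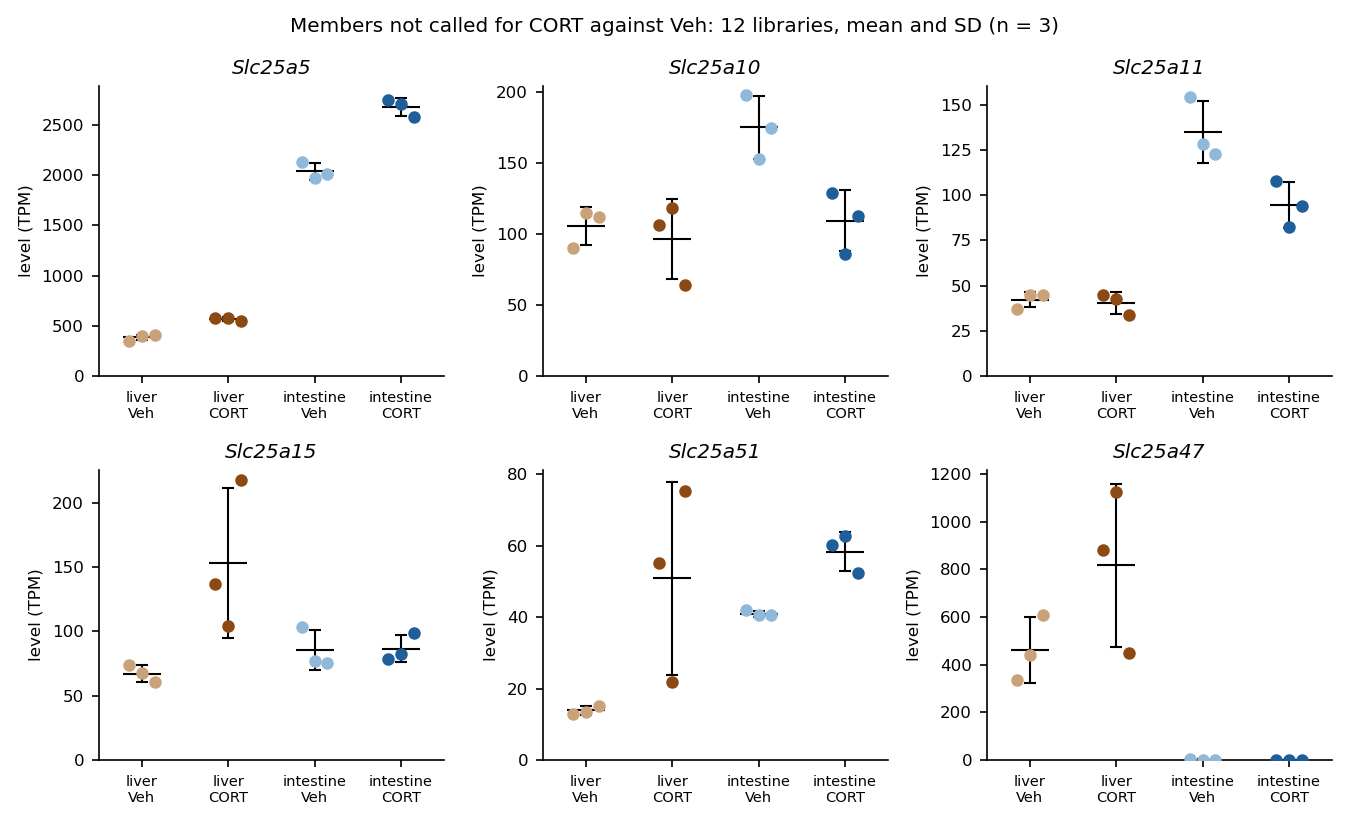
Each panel shows a Slc25 member that was not called for CORT, with its level (TPM) in the 12 libraries as points, 3 per group, and the mean and SD as black lines. The CORT intestines lie below the Veh intestines for Slc25a10 and Slc25a11 and above them for Slc25a5 and Slc25a51, while the CORT livers spread widely for Slc25a15, Slc25a51 and Slc25a47.

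The carboxylate carriers gave no call in either tissue, and in intestine they lay on the low side. Slc25a10, the dicarboxylate carrier, was at 198, 153 and 175 TPM in Veh intestine and at 129, 86.1 and 113 TPM in CORT intestine (log2 fold change -0.69, limma adjusted p = 0.111). Slc25a11 was at 154, 128 and 123 TPM in Veh and at 108, 82.5 and 93.8 TPM in CORT (-0.51, limma adjusted p = 0.150). Slc25a1 was at 160, 149.6 and 156 TPM in Veh and at 134, 90.9 and 117 TPM in CORT (-0.46, limma adjusted p = 0.194). For these 3 genes every CORT intestine was below every Veh intestine. In all 4 of the 38 members tested had that order, beside 14.3% of all genes tested, so it was no more frequent among the members. In liver their log2 differences were -0.17, -0.07 and -0.41, with overlap for each.

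Cofactor carriers gave no call either, though Slc25a51 (ENSMUSG00000045973), which brings NAD into mitochondria, had the largest log2 fold change of the family in liver. It was at 13.0, 13.5 and 15.3 TPM in Veh liver and at 55.3, 21.8 and 75.5 TPM in CORT liver (log2 fold change 1.63, standard error 0.41, limma adjusted p = 0.0610). The Veh livers were nearly alike and the CORT livers spread widely, all above Veh. In intestine Slc25a51 was at 41.9, 40.5 and 40.5 TPM in Veh and at 60.1, 62.6 and 52.3 TPM in CORT, apart as well (0.50, limma adjusted p = 0.0894). The folate carrier Slc25a32 was at 3.66, 3.71 and 6 TPM in Veh liver and at 14.8, 7.82 and 9.03 TPM in CORT liver (1.06, limma adjusted p = 0.0604), against 3.71 ± 0.667 TPM and 3.20 ± 0.815 TPM in intestine. Its tissue difference of 1.24 (95% interval 0.47 to 2.00, limma adjusted p = 0.0840) was the largest of the family and did not pass. Slc25a33, a pyrimidine nucleotide carrier, showed the other order, with 0.89 in intestine (limma adjusted p = 0.0637), where CORT lay above Veh in all libraries, and 0.29 with overlap in liver.

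Of the remaining carriers, the orphan Slc25a34 (ENSMUSG00000040740) was called in liver at a low level. It was at 1.04, 1.63 and 1.25 TPM in Veh liver and at 4.66, 4.03 and 2.57 TPM in CORT liver, and the lowest CORT value was in library 3, as for Slc25a20 and Slc25a22. The log2 fold change was 1.02 (standard error 0.22, limma adjusted p = 0.0398) and the ratio of means was 2.87. In intestine it was at 6.62, 3.59 and 6.07 TPM in Veh and at 10.8, 9.96 and 13.5 TPM in CORT, without overlap and without a call (0.97, limma adjusted p = 0.0803). Slc25a47 was at 334, 440.4 and 610.2 TPM in Veh liver and at 880.1, 1123 and 448 TPM in CORT liver. CORT library 3 fell inside the Veh range, so the groups overlapped (log2 fold change 0.77, limma adjusted p = 0.241). The mitoferrins went unlike ways without a call, Slc25a37 with CORT below Veh in all livers (-0.42) and Slc25a28 with CORT above Veh in all intestines (0.47).

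Across the 34 members tested in both tissues, 10 had all CORT libraries above all Veh libraries in liver and in intestine. Among them were the called Slc25a13, Slc25a20, Slc25a22 and Slc25a34 and also Slc25a5, Slc25a29, Slc25a44 and Slc25a51. Slc25a29 was near 1 TPM in intestine and entered that fit only through its CORT group. Of the 10500 genes tested in both tissues 5.11% lay above in both. None of the 34 lay below in both, and none was apart in opposite directions, beside 2.75% and 1.96% of all genes. Each tissue has its own Veh and CORT libraries, so these comparisons share no sample, though the labels do not say whether a liver and an intestine came from the same mouse. In the fit of all 12 libraries 0 of 40 members had a treatment effect that differed between the tissues by limma (adjusted p not above 0.05), beside 3.61% of all genes, and 8 did at an unadjusted p under 0.05, beside 18.3%. Without liver CORT library 2 there were 2, Slc25a15 (1.33, limma adjusted p = 0.0434) and Slc25a51 (1.64, limma adjusted p = 0.0028).

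The sequences around the starts of the called members were read to show what is shared there. RefSeq (GRCm38.p6) gave 46 promoter windows for 36 member genes, from 250 bases before to 50 bases after a start, with a median GC content of 59.3% against 52.7% for 32851 windows of all genes. The arm AGAACA of the glucocorticoid receptor site, read as TGTTCT on the other strand, was in 4 member windows (8.7%), those of Slc25a17, Slc25a31, Slc25a43 and Slc25a45, against 19% of all. The full site, this arm facing its reverse complement across 3 bases, was in 0 member windows and in 0.00913% of all. The letters AGGTCA, which many nuclear receptors bind and which read TGACCT on the other strand, were in 4 (8.7%), Slc25a34 among them, against 16.3%. Their direct repeat across 1 base, bound by PPAR factors, was in 0 against 0.0396%. The letters CCGGAAG of ETS factors, or on the other strand CTTCCGG, were in 7 (15.2%), Slc25a20 among them, against 8.86%. A window without a match says only that these letters are not in it. The windows of Slc25a22, called in liver, held no match and are not printed, and no motif was shared by the called members. The windows of Slc25a13 and Slc25a20, called in both tissues, and of Slc25a34, the called member with a nuclear receptor motif, are printed 5′ to 3′ on the strand of the gene, with a matched motif in capitals. They lie at chr6:6217124-6217423 on the minus strand for Slc25a13, chr9:108661886-108662185 on the plus strand for Slc25a20 and chr4:141623785-141624084 on the minus strand for Slc25a34, and the capitals mark CCGGAAG in Slc25a20 and TGACCT in Slc25a34, with none in Slc25a13.
Slc25a13: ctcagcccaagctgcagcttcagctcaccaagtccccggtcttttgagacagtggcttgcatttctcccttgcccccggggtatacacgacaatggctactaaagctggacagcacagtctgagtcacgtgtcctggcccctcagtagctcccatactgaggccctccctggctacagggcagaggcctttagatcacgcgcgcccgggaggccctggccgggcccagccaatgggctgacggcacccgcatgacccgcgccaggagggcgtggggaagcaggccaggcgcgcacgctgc
Slc25a20: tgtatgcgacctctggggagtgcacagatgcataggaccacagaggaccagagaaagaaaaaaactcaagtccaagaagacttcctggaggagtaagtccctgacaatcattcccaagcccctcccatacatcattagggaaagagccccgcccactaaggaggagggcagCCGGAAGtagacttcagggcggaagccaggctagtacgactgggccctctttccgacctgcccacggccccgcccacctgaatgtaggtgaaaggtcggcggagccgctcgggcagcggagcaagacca
Slc25a34: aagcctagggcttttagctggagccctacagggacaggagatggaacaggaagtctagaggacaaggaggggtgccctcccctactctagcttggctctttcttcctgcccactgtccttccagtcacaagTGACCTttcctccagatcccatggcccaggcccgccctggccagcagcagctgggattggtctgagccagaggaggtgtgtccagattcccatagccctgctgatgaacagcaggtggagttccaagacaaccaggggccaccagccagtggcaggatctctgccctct

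The 4 called members lie on different chromosomes (6, 9, 7 for Slc25a22 and 4). In the RefSeq gene order of the same build the 47 members sit on 19 chromosomes, and 4 pairs follow each other with 0 protein-coding genes between them. In each of the pairs Slc25a41 and Slc25a23, Slc25a54 and Slc25a24, and Slc25a43 and Slc25a5, the first member stayed under 1 TPM in every group while its neighbour was well above that in at least 1 tissue. In the pair Slc25a29 and Slc25a47, Slc25a29 was at 1.71 ± 0.823 TPM in Veh liver beside 462 ± 139 TPM of Slc25a47.

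Genes that work with these carriers were read from lists. Their counts stand beside backgrounds over all genes tested of 6.92% called in liver and 2.15% in intestine, and of 25.9% and 19.2% with an unadjusted limma p under 0.05. The list of the carnitine shuttle, in which Slc25a20 takes part, had 3 of 5 genes called in liver, all higher after CORT. They were the plasma membrane carnitine transporter Slc22a5 (log2 fold change 2.13), carnitine acetyltransferase Crat (2.63) and Cpt2 (0.95). Acsl1, which activates fatty acids, gave 1.20 (limma adjusted p = 0.0641), and Cpt1a, the entry enzyme, 0.80 (limma adjusted p = 0.172). In intestine 1 of 6 was called, Slc22a5 at 1.37, and Crat, at 0.26 there, differed between the tissues (difference 2.36, limma adjusted p = 0.0297). In CORT liver library 3, where Slc25a20 was lowest, Slc22a5 was at 18.4 TPM against 36.1 and 32.1 TPM in the other CORT livers, Crat at 16.3 TPM against 44.6 and 50.5 TPM, and Acsl1 at 199 TPM against 449 and 388 TPM. All these values were still above the Veh livers.

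A list around citrate, which Slc25a1 carries to the cytosol, had 3 of 6 genes called in liver, these lower after CORT. They were fatty acid synthase Fasn (-1.44), ATP citrate lyase Acly (-1.20) and acetyl-CoA carboxylase Acaca (-0.72). Citrate synthase Cs and malic enzyme Me1 are on the list without being users of exported citrate. The other three lay on the high side without a call, Acacb, the carboxylase at the mitochondrial surface, with all CORT livers above Veh (1.57, limma adjusted p = 0.0555), Me1 (0.82) and Cs (0.42). In intestine 1 of 6 was called, Acacb, which was higher (1.24). Slc25a1 itself, at 141, 193 and 181 TPM in Veh liver and 132, 153 and 104 TPM in CORT liver, was not called (-0.41, limma adjusted p = 0.229). None of the urea cycle genes was called in either tissue, 0 of 6 in liver and 0 of 5 in intestine, and in liver Asl, argininosuccinate lyase, had all CORT values above Veh (0.78, limma adjusted p = 0.0510) while Otc had all below (-0.53, limma adjusted p = 0.0604). At an unadjusted limma p under 0.05 there were 3 urea cycle genes in liver and 0 in intestine. For the malate-aspartate shuttle enzymes 0 of 4 were called by limma in each tissue, with 1 in liver and 0 in intestine at an unadjusted p under 0.05.

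Markers of mitochondrial content, such as the pore proteins Vdac1 to Vdac3 and the import subunits, had 0 of 12 called in each tissue. Their median log2 differences were 0.022 in liver and -0.25 in intestine. In liver 6 were above 0 and 6 below, and in intestine 1 was above and 11 below, beside 7009 of 13607 genes below. Of the 12, 3 had all CORT intestines below Veh, beside 14.3% of all genes, and 3 had all CORT livers above, beside 20.6%. Of these genes 3 in liver and 2 in intestine had an unadjusted limma p under 0.05. Among the pyruvate carrier and sideroflexin genes Sfxn1, the mitochondrial serine carrier, was called in liver (1.04, limma adjusted p = 0.0109), and in intestine 0 of 5 were called and 0 had an unadjusted limma p under 0.05. Heme and iron-sulfur genes, which the mitoferrins and Slc25a39 serve, had 0 of 7 called by limma in each tissue, with 2 in liver and 5 in intestine at an unadjusted p under 0.05. Ppara, the nuclear receptor that drives fatty acid oxidation genes, was the 1 gene of 6 regulators called in intestine (1.21, limma adjusted p = 0.0329), and in liver it gave 0.79 (limma adjusted p = 0.0894), where 0 of 6 were called and 2 had an unadjusted limma p under 0.05. Of family members under other symbols, Ucp1 was listed at 0 in all libraries, Ucp2 was at 650.1 to 1402 TPM in intestine and 8.31 to 46.7 TPM in liver, and 0 of 3 tested were called for CORT by limma in either tissue, with 2 in liver and 1 in intestine at an unadjusted p under 0.05.

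The 3 genes outside the family whose log2(TPM + 1) pattern over the 12 libraries was most like that of Slc25a20 were Acot1, Trarg1 and Def8, with Pearson correlations of 0.923, 0.915 and 0.913. Acot1, a cytosolic acyl-CoA thioesterase, was at 7.01 TPM in Veh liver and 81.5 TPM in CORT liver, and at 7.09 and 75.1 TPM in Veh and CORT intestine, on average over 3 libraries each. Def8 ran from 13.8 TPM in Veh liver to 24.0 TPM in CORT intestine, and Trarg1 was at or below 1.39 TPM on average in every group. The 12 points share their treatment groups, so these correlations describe a pattern over groups and are given without a p.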

How the data were processed

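RNA-seq was analysed in 12 libraries of mouse liver and duodenum, 3 per tissue and treatment, grouped by the labels. Reads were trimmed with SeqPrep and Sickle, and the submitters' processing notes name HISAT2, StringTie and RSEM with the build GRCm39. Tool versions and the annotation release are not given in the sources used here. The authors deposited TPM for every gene in each library, not pooled, in a table per tissue. TPM hold no depth, so precision rests on 3 replicates per group. The study's own differential expression columns were not used.

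Values were taken as log2(TPM + 1), genes averaging 1 TPM or more in a group of the fit entered, and limma 3.58.1 in R 4.3.3 (lmFit, eBayes with a trend) was fitted over all genes in 4 fits: CORT against Veh in each tissue, Veh liver against Veh intestine, and the difference of the 2 treatment effects over 12 libraries. Adjusted p-values are limma's, by the Benjamini-Hochberg method. The fits were tested on simulated data. The labels mark the libraries of a group as biological replicates, without naming the animal of each, and p-values measure the spread between them.

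Named genes are Slc25a20, each called member, the 8 highest members per tissue, members by substrate and the 3 genes most like Slc25a20. Further members were named for their values. Results of a withheld member are not reported here by name or in the figures, though counts and sums include it. Members and lists were chosen with earlier results of these data known. Alternatives were a pseudocount of 0.1, no filter, the replicate number as a block, median-ratio scaling, removal of mitochondrially encoded or acinar genes, no fold limit and leaving out libraries. Reference sequences are of GRCm38.p6 and carry no value of these libraries.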

Additional observations from a re-analysis of the deposited data

Results flagged for a closer look

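Slc25a24, an ATP-Mg/phosphate carrier, had opposite orders in the tissues. In liver, where it was below the level for testing, it was at 0.18, 0.36 and 0.32 TPM in Veh and at 0.44, 0.45 and 0.40 TPM in CORT (mean 0.43), so every CORT library was above every Veh library. In intestine it was at 40.3, 35.2 and 37.5 TPM in Veh and at 25.5, 32.7 and 34.3 TPM in CORT, with every CORT library below every Veh library (log2 fold change -0.29, limma adjusted p = 0.340). The difference of the log2 fold changes, liver minus intestine, was 0.44 with a 95% interval of 0.037 to 0.85 and did not pass (limma adjusted p = 0.233). All liver values are below 1 TPM.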

How the results depend on the processing

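Without the filter on low values 0 members were called in liver and 0 in intestine. With the replicate number as a block the counts were also 0 and 0. Deviations from the group means correlated at -0.125 to 0.0788 between same-numbered samples and at -0.146 to 0.147 between other samples. For CORT and Veh intestine the ranges were -0.00137 to 0.0788 and -0.0855 to 0.0371, so same-numbered samples lay partly higher there. With 3 libraries per group this cannot decide whether the numbers mark a pairing. Median-ratio scaling and removal of mitochondrially encoded genes left 1 call in intestine each, and leaving out Veh libraries 2 and 3 together left 0, with the lone Veh library taken to vary like the CORT group. With each library left out, the counts ran from 0 to 5 in liver, from 0 to 1 in intestine, from 24 to 27 between the tissues and from 0 to 2 for the difference of the treatment effects. Without liver Veh library 2 and CORT library 3 together, added after seeing the data, that difference gave 1 call, Slc25a30 (1.40). Median-ratio scaling turned the tissue differences of Slc25a10 to 0.093 and Slc25a12 to 0.11. Of the values of called members under the alternatives, 23 of 52 in liver, 11 of 30 in intestine and 374 of 390 between the tissues kept their direction and side of the threshold. Another 29, 19 and 14 lost the call with the direction kept. Between the tissues 2 more, Slc25a10 and Slc25a12 under median-ratio scaling, changed direction and lost the call as well. The causes were not tested. TPM carry no depth, so low members such as Slc25a34 cannot be given a counting error.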
